A study of Mus musculus with 4 samples.

Results

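The 44 genes described here act in S phase, the part of the cell cycle in which DNA is copied. They were taken by name from the 31053 genes of the count tables, all 44 were found, and all 44 passed the filter on low counts in the gate and marker class comparisons. Transcripts were counted in single hematopoietic stem cells (HSCs) from the bone marrow of 2 male mice aged 14 weeks, of the strain Tie2-bG-Micm x RosaYFP. Sorted cells carried Kit and Sca-1 and lacked lineage markers and CD48. The gates differed in CD150, the product of Slamf1: long-term HSCs (LT-HSC) had it and short-term HSCs (ST-HSC) lacked it. Each mouse gave 1 library per gate, 4 in all, called LT1, LT2, ST1 and ST2 here by gate and number of the mouse. Both gates come from mice that carry the Tie2-bG-Micm transgene and the YFP reporter.

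Before S phase, the helicase ring of the MCM proteins is loaded onto replication origins with the help of Cdc6 and Cdt1, a step called licensing. At the start of S phase, Cdc45 and the GINS complex turn the ring on, primase and the polymerases copy DNA behind it, and the sliding clamp Pcna holds them on their template. Many of these genes are targets of the E2F transcription factors, which act at the step from G1 to S phase. In adult bone marrow most HSCs are known to be at rest, so RNA of these genes is a common measure of how many of them have entered the cycle. Mki67 and Top2a, proliferation genes that are no members of the list, rise later in the cycle and were used here to split the cells. As proliferation genes they are tied to the same cycle as the 44 genes, so the split is not independent of it.

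In LT1, only 22 of 39553 barcodes passed as cells, which needed 1000 or more genes, 2000 or more UMIs and no more than 10% of UMIs from mitochondria. The other libraries gave 1217 cells (LT2), 2633 (ST1) and 1707 (ST2). A UMI, or unique molecular identifier, marks 1 captured RNA molecule. Kept cells summed to 115305, 13249904, 27870823 and 13566531 UMIs in LT1, LT2, ST1 and ST2, and 3 UMIs, taken as the limit of detection, came to 26.02 counts per 1000000 (CPM) on plain totals in the first and 0.108 to 0.226 CPM in the others. What is said of LT-HSC therefore rests almost wholly on mouse 2. Each count is a tag at the 3′ end of a transcript, so CPM values are not divided by gene length; levels of different genes also depend on how well that end is captured. Slamf1 lay at 32.8 (4 UMIs), 22.4, 0.831 and 1.45 CPM, and Hlf, Meis1, Kit and Mecom, which mark HSCs, were present in every library. Markers of other blood cell types summed over 45 genes to 631 CPM, 733 CPM, 1403 CPM and 3159 CPM in the same order. Cells with markers of other types numbered 0, 3, 14 and 27, and the libraries shared at most 2 barcodes with the others.

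Promoter windows, running from 250 bases before to 50 bases after the start of transcription, were at hand for 35 of the 44 genes (RefSeq, build GRCm38.p6). An E2F-type site, spelled TTTGGCGC, TTTCCCGC, TTTCGCGC or TTTGCCGC on either strand, lay in the windows of 16 of these 35 genes (45.7%), against 2.61% of 27025 genes with a window. The 16 genes were Mcm3, Mcm5, Mcm6 and Mcm7, Cdc6 and Cdt1, Pola1 and Pold3, Lig1 and Pclaf, Clspn and Dtl, and Cdca7, Hells, Uhrf1 and Ubr7. Of the 14 members known for expression at the step from G1 to S phase, 12 had a window and 6 of these held a site; of the 11 members known for expression later in S phase, 2 of 8 did. The CCAAT box (CCAAT on either strand) lay in 60.0% of the members' windows and in 41.1% of all genes' windows, and the element TTTGAA, known from genes of G2 and mitosis, in 17.1% and 20.2%. These are matches of letters, not measured binding, and neighbouring matches can overlap, as they do in Mcm6. No promoter window was at hand for Mcm4, Gmnn, Gins2, Rfc2, Dscc1, Tipin, Exo1, Usp1 and Atad2. The 110 bases before the start are printed for the 4 genes whose sites lie wholly within them, since they show where the letters shared by these promoters sit. Each is read 5′ to 3′ on the gene's strand, with the E2F-type sites in capitals.
Mcm6, chr1:128359706-128359815, minus strand: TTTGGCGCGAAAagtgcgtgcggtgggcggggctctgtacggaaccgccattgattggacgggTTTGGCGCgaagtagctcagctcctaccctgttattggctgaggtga
Dtl, chr1:191575545-191575654, minus strand: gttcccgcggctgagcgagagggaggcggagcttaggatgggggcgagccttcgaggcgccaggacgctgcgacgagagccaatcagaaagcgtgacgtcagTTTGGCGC
Hells, chr19:38930880-38930989, plus strand: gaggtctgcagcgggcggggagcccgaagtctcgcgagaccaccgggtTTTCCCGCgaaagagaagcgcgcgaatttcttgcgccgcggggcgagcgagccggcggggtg
Cdca7, chr2:72476109-72476218, plus strand: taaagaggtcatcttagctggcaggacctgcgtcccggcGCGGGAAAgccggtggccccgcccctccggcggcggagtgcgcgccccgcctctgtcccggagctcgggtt

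S phase RNA was a small part of the RNA of the sorted cells and was unevenly spread over them. The 44 genes together took 0.146% of all UMIs in LT1, 0.211% in LT2, 0.206% in ST1 and 0.175% in ST2. Because deeper cells show more UMIs of any gene, each cell was also thinned at random to 2000 UMIs. The median thinned cell then held 3, 2, 2 and 2 UMIs of the 44 genes, and the mean was 4.09, 3.25, 3.33 and 2.85. Without thinning the medians were 7.5, 9, 10 and 7 UMIs. Cells with none after thinning made up 18.2%, 15.4%, 12.95% and 14.6%. At the other end, the most S-phase-rich 1 in 100 cells held at least 22, 20 and 16 thinned UMIs in LT2, ST1 and ST2. The gates overlapped on this measure: LT2 lay between the ST-HSC libraries in its mean per cell and above both in its share of UMIs, and LT1 had the highest mean per cell and the lowest share of UMIs. With a stricter filter of 1500 genes and 4000 UMIs, which 12 cells of LT1 passed, the means were 2.08, 3.29, 3.35 and 2.88, with LT1 the lowest. With 2 libraries against 2, an exact permutation test (2-sided) cannot give a p below 0.333, so no test was made of these values.

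The cells with at least 1 UMI of Mki67 or Top2a, called marker-positive here, held far more S phase RNA than the rest. They made up 18.0% of cells (exact binomial interval 15.9% to 20.3%) in LT2, 22.1% (20.6% to 23.8%) in ST1 and 13.1% (11.5% to 14.8%) in ST2. In LT1 they were 2 of 22 cells. The intervals cover counting error only. Marker-positive cells were deeper, with a median of 14351, 12196 and 9611 UMIs against 9960, 9452.5 and 7313 in marker-negative cells, and with counts thinned to 2000 UMIs their shares were 6.24%, 7.79% and 4.98%. After thinning, marker-positive cells held a mean of 7.82, 6.64 and 6.53 UMIs of the 44 genes, and marker-negative cells 2.25, 2.39 and 2.30. They held 24.6%, 28.6% and 17.8% of all UMIs of their library but 55.5%, 54.8% and 41.4% of the UMIs of the 44 genes.

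**Figure D1:**
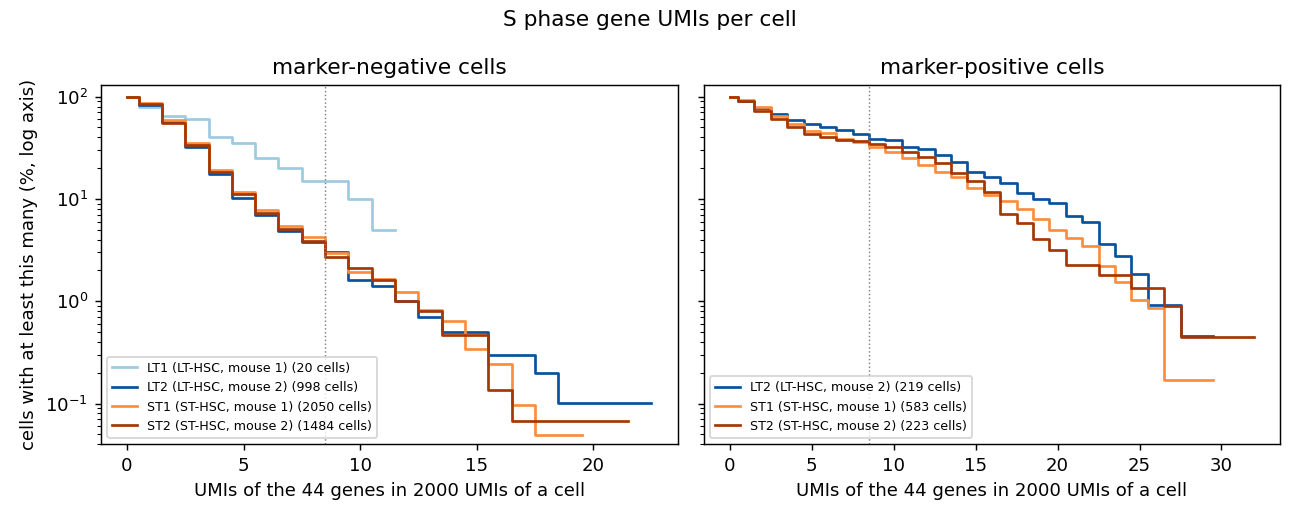
Share of cells (percent, log axis) with at least a given number of UMIs of the 44 genes among 2000 thinned UMIs per cell, 1 line per library, for marker-negative cells (left) and marker-positive cells (right); the dotted line marks the 9 UMIs from which a cell is called member-rich. In the 3 libraries with over 1000 cells, between 2.70% and 3.01% of marker-negative cells and between 31.9% and 38.8% of marker-positive cells lie at or above that line; the 20 marker-negative cells of LT1 lie higher, and its 2 marker-positive cells are not drawn.

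The share of marker-positive cells was higher among cells with many S phase UMIs. Among cells with 0 thinned UMIs of the 44 genes, 10.1%, 13.5% and 9.24% were marker-positive in LT2, ST1 and ST2. The shares were slightly lower, 9.40%, 13.3% and 8.02%, among cells with 1 to 2 such UMIs. They were 12.9%, 17.8% and 10.1% among cells with 3 to 5, 34.6%, 42.7% and 18.75% among cells with 6 to 9, 79.2%, 73.6% and 61.9% among cells with 10 to 14, and 88.9%, 91.5% and 82.5% among cells with 15 or more. Between neighbouring bins the largest step, in each of the 3 libraries, lay between 6 to 9 and 10 to 14 UMIs. With the markers thinned too, the shares ran from 2.66%, 4.11% and 0.803% at 0 UMIs to 53.3%, 48.8% and 52.5% at 15 or more. The median depth of the cells moved in the same direction, from 9463, 8882 and 7002 UMIs to 18576, 17807 and 14463 UMIs, and its part in these shares beyond what thinning removes was not tested.

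The members also tended to be found in the same cells. Rrm2, the small subunit of ribonucleotide reductase, was detected after thinning in 25, 36 and 27 cells, and these cells held a mean of 14.3, 15.2 and 13.2 UMIs of the other 43 genes. Cells without Rrm2 held 2.99, 3.15 and 2.66. Tk1 and Pclaf cells came close to it, with 4.72 and 4.44 times as many UMIs of other members as cells without them, as a mean of the 3 libraries. At the other end Chaf1b, a subunit of the chromatin assembly factor, was detected in 145, 277 and 176 cells, which held 1.22 times as many as cells without it. Next came Ubr7 at 1.35 times, the helicase gene Blm at 1.63 times and the clamp loader gene Rfc2 at 1.65 times. E2f8 had the highest ratio of all, 5.02 times, from 6 to 14 cells per library.

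The first comparison between samples asked which S phase genes differ between the gates. Of the 44 genes, edgeR called 1 higher in LT-HSC, Tk1, and none higher in ST-HSC (DESeq2 called 0). An unadjusted p under 0.05 by edgeR was found for 7 of the 44 members and for 1718 of the 12656 genes tested. The count of 7 is therefore not read as a result about the members. Of all 12656 genes tested, 6.72% were called, 3.60% as higher in LT-HSC and 3.13% in ST-HSC. The median log2 fold change of the 44 genes, LT-HSC minus ST-HSC, was 0.17, against -0.02 over all genes tested, and 35 of the 44 values were above 0. The median was 0.03 with 24 values above 0 without ST2, 0.04 with 24 by DESeq2, and -0.84 with 12 without LT2, which leaves the 22 cells of LT1. The 2 libraries per gate, of which 1 has 22 cells, limit this comparison. In bulk sums such as these, fewer cells in S phase and less S phase RNA per cell cannot be told apart.

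Tk1, the thymidine kinase that feeds the salvage of thymidine, had 0 UMIs in LT1, where the limit of detection was 26.02 CPM. It lay at 29.0 CPM in LT2, 17.0 CPM in ST1 and 12.8 CPM in ST2. The LT-HSC library with cells thus lay above both ST-HSC libraries, while the plain means, 14.5 ± 20.5 CPM and 14.9 ± 2.998 CPM (SD, n = 2 each), did not show it. The log2 fold change was 0.87 (SE 0.22, edgeR adjusted p = 0.00208). Counted over the 39553 barcodes of LT1, Tk1 lay at 31.3 CPM (379 UMIs), with a gate difference of 1.04 on the log2 scale (SE 0.17, edgeR adjusted p = 0.00216). The call was lost without ST1 (1.07, adjusted p = 0.0884), without ST2 (0.66, adjusted p = 0.381) and with DESeq2 (0.42). Without LT2 the LT-HSC side was left at 0 UMIs.

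With the mouse as a block, edgeR called 4 members higher in LT-HSC: Tk1 (1.01, SE 0.28), the exonuclease gene Exo1 (0.91, adjusted p = 0.00902), the repair gene Rad51ap1 (0.90, adjusted p = 0.00293) and Cdc45, the helicase activator (0.74, adjusted p = 0.0417). In that fit 3.54% of all genes were higher in LT-HSC and 3.22% in ST-HSC. Exo1 lay at 8.20 CPM (1 UMI), 12.8, 8.21 and 6.70 CPM in LT1, LT2, ST1 and ST2. Rad51ap1 lay at 0, 15.7, 10.3 and 8.07 CPM, and Cdc45 at 8.20 (1 UMI), 12.5, 9.87 and 7.31 CPM. All 3 were highest in LT2, and the cells of LT1 held too few UMIs to place them. When every barcode of LT1 was summed, the calls were Gins2, Rrm2, Tk1 and Tyms (background 5.04% higher in LT-HSC, 3.82% in ST-HSC), and with the block added Rad51ap1 joined them (background 6.59% and 4.87%). Most of those barcodes did not pass as cells.

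Between the 3 libraries with over 1000 cells, LT2 lay above both ST-HSC libraries for 26 members, between them for 15 and below both for Cdc6, Rfc2 and Nasp. The matching shares over all genes are not given here, so these counts are not read as a trait of the members. All 4 genes of nucleotide supply (Tyms, Rrm1, Rrm2 and Tk1) were among the 26. Tyms, the thymidylate synthase, lay at 65.6 CPM (8 UMIs), 54.5, 42.1 and 38.6 CPM, so its groups did not overlap, but its log2 fold change of 0.46 did not pass the test (edgeR adjusted p = 0.239). Rrm2 lay at 24.6 (3 UMIs, the limit of detection), 24.6, 18.0 and 18.2 CPM, with 0.45 and an edgeR adjusted p of 0.340; without cells that carry other-type markers it was called (0.68, adjusted p = 0.0252). Rfc2, the highest of the 44 genes in 3 of 4 libraries, had the lowest log2 fold change, -0.45 (SE 0.19, adjusted p = 0.201), with 90.1 CPM, 159 CPM, 198 CPM and 202 CPM. LT2 exceeded ST2, from the same animal, for 41 of 44 members, which compares 2 libraries, not the gates, and again lacks the share over all genes.

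By role, the levels in the 4 libraries (LT1, LT2, ST1 and ST2) were as follows. Mcm6 led the helicase genes with 82.0 (10 UMIs), 142, 106 and 119 CPM, Mcm7 lay at 115 CPM (14 UMIs), 97.4 CPM, 107 CPM and 96.0 CPM, and Mcm3 at 49.2 (6 UMIs), 107, 96.5 and 83.0 CPM. Gmnn led licensing with 8.20 (1 UMI), 59.9, 57.0 and 42.2 CPM. Of the polymerase genes, Prim1 lay at 16.4 (2 UMIs), 38.8, 35.1 and 28.2 CPM. None of these genes separated the gates.

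Pcna lay at 57.4 (7 UMIs), 97.9, 125 and 74.4 CPM, and the ST-HSC libraries of the 2 mice differed more from each other than from LT2. Tipin lay at 24.6 (3 UMIs), 73.1, 64.9 and 61.5 CPM. Slbp led the chromatin and histone genes with 49.2 (6 UMIs), 121, 113 and 107 CPM, followed by Cdca7 with 49.2 (6 UMIs), 119, 94.6 and 95.5 CPM. In both, LT2 was the highest library and LT1 the lowest. E2f1 lay at 24.6 (3 UMIs), 13.4, 14.6 and 10.96 CPM, and E2f8, a repressor of the same family, at 0, 6.02, 5.06 and 4.19 CPM.

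**Figure D2:**
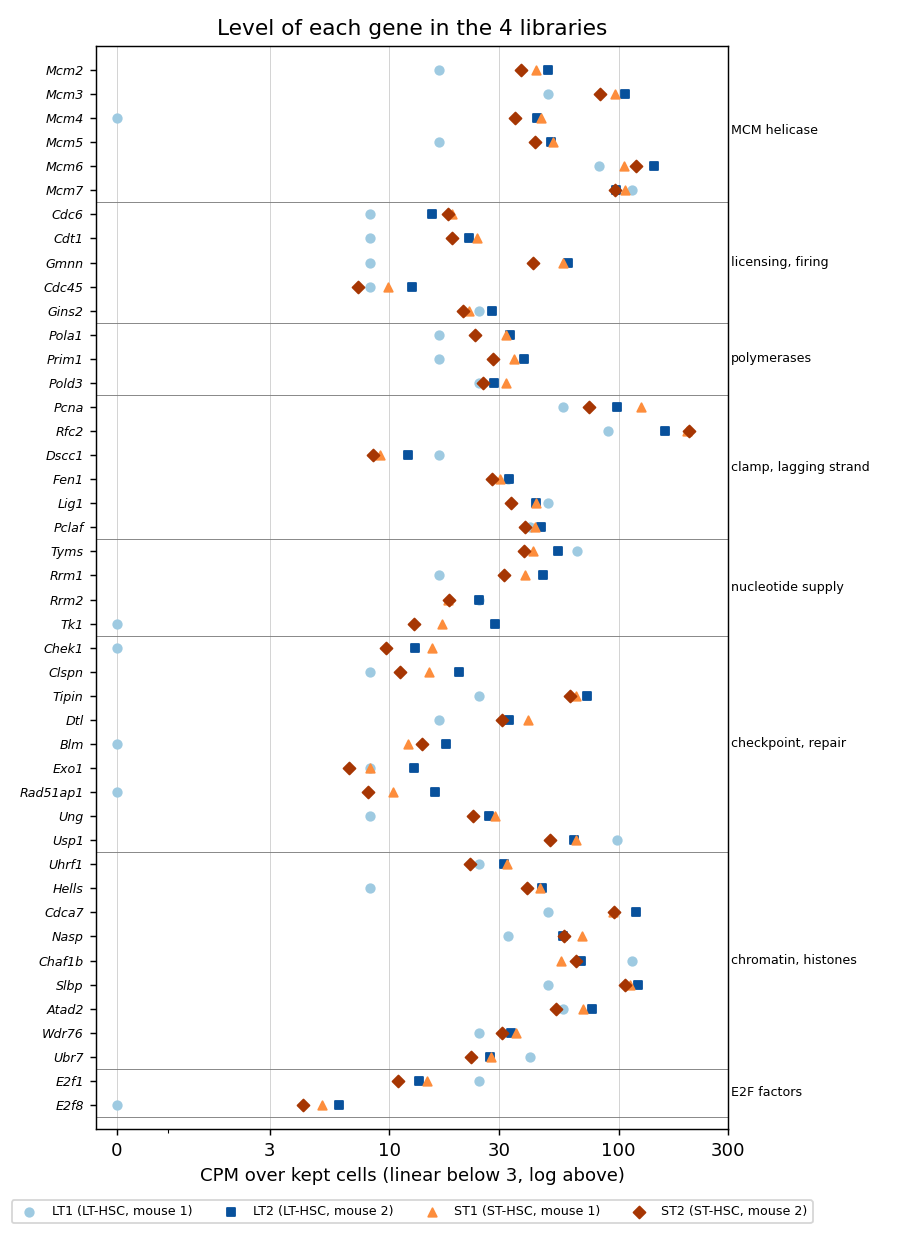
CPM (TMM-scaled, linear below 3 and log above) of each of the 44 genes over the kept cells of the 4 libraries, 1 symbol per library, grouped by role; a value of 0 means no UMI. The 3 libraries with over 1000 cells lie close together for most genes, and the 22 cells of LT1 scatter widely, with 6 genes at 0.

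The next comparison asked which of the 44 genes are higher in marker-positive cells. It set sums over marker-positive against sums over marker-negative cells within each of the 3 libraries with over 1000 cells. All 44 members were higher in marker-positive cells (edgeR, library as block), where 17.3% of 12188 genes tested were higher and 13.4% lower. The median log2 fold change of the 44 was 1.91, with a range from 0.53 (Chaf1b) to 5.32 (Rrm2), against a median of -0.03 over all genes. In all 3 libraries, all 44 genes had a higher CPM in marker-positive cells. The share of all genes that do so, or whose classes do not overlap, is not given here. Such statements, here and below, only describe the values. With classes made from counts thinned to 2000 UMIs, all 44 were again called, with a median of 1.76; DESeq2 also called 44. Without the library block Chaf1b was not called (0.50, adjusted p = 0.0716). The 14 members of the step from G1 to S phase had a median of 1.71 and the 11 members of later S phase one of 3.21. Since both markers are proliferation genes that rise later in the cycle, higher S phase genes, above all later ones, could be foreseen.

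Markers of other blood cell types differed between the classes. The 45 markers summed to 805 CPM, 1055 CPM and 2987 CPM in marker-negative cells of LT2, ST1 and ST2, and to 486 CPM, 2166 CPM and 3442 CPM in marker-positive cells. By the test, 4 of 10 neutrophil markers were higher in marker-positive cells, Elane, Mpo and Ctsg among them, and Ngp and Lcn2 were lower. The neutrophil markers summed to 575 CPM, 771 CPM and 2605 CPM in marker-negative cells and to 299 CPM, 1786 CPM and 1477 CPM in marker-positive ones, so the sum was higher in ST1 and lower in LT2 and ST2. Of 6 erythroid markers 5 were higher (Car1, Hba-a1, Hba-a2, Hbb-bs and Klf1), as were the mast cell marker Cpa3, alone tested of its list, and Nkg7, 1 of 2 T and NK cell markers. All 8 listed erythroid markers summed to 144 CPM, 132 CPM and 223 CPM in marker-negative cells of LT2, ST1 and ST2. In marker-positive cells they summed to 81.8 CPM, 206 CPM and 1292 CPM, so the sum was lower in LT2 and rose most in ST2. The 5 listed basophil and mast cell markers summed to 2.34, 21.5 and 4.74 CPM in marker-negative cells of LT2, ST1 and ST2. Their sums in marker-positive cells were 5.21, 4.50 and 455 CPM, so the sum was lower in ST1 and rose most in ST2. Of B cell markers 1 of 3 was lower, and of macrophage and dendritic markers 1 of 4. In marker-positive cells of LT2, 22 of the 45 markers were at 0. Without the cells that carry other-type markers, all 44 members were called, with a median of 1.91.

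The 6 genes of the MCM helicase, which unwinds DNA ahead of the fork, rose by a similar amount, from 1.25 (Mcm7) to 2.10 (Mcm5). Mcm6 went from 98.3 CPM in marker-negative to 269 CPM in marker-positive cells of LT2, from 74.0 to 178 CPM in ST1 and from 89.8 to 236 CPM in ST2 (log2 fold change 1.37, SE 0.06, edgeR adjusted p = 3.65e-12). Mcm3 went from 70.9 to 210 CPM, from 60.5 to 180 CPM and from 59.3 to 181 CPM (1.58, SE 0.05). Mcm7 went from 66.6 to 186 CPM, from 77.1 to 174 CPM and from 77.4 to 168 CPM. For each of the 3 genes, every marker-positive value lay above every marker-negative one. Of the Mcm3 UMIs, 49.6%, 53.9% and 39.2% lay in marker-positive cells.

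Among the genes of licensing and origin firing, Gmnn, which encodes the Cdt1 inhibitor geminin, went from 25.5 to 161 CPM in LT2, from 25.5 to 132 CPM in ST1 and from 20.5 to 138 CPM in ST2 (2.55, SE 0.07). Its inhibited partner Cdt1 rose from 10.9 to 55.1 CPM, from 11.6 to 53.6 CPM and from 10.4 to 55.1 CPM (2.29, SE 0.09). Gins2, a GINS subunit, rose from 14.6 to 67.7 CPM, from 11.8 to 47.1 CPM and from 14.1 to 49.6 CPM (2.02, SE 0.09). The 3 genes did not overlap between classes. Cdc45 rose by 2.67 and Cdc6 by 1.55, the lowest of this group.

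The 3 polymerase and primase genes rose. Pola1, the catalytic subunit of polymerase alpha, rose by 1.91 (SE 0.09), from 18.3 to 78.7 CPM, from 19.1 to 63.5 CPM and from 14.8 to 60.7 CPM in LT2, ST1 and ST2. Prim1, the primase that makes its primers, rose by 1.89 (SE 0.08), from 21.2 to 90.1 CPM, from 20.1 to 70.0 CPM and from 19.0 to 67.4 CPM. Pold3, an accessory subunit of polymerase delta, rose by 1.07 (SE 0.09), among the 5 smallest values of the 44. It went from 20.4 to 52.4 CPM, from 25.4 to 46.5 CPM and from 20.6 to 45.8 CPM in the same order.

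The clamp and lagging strand genes ranged from 0.75 (Rfc2) to 5.17 (Pclaf). Pclaf, which encodes a small protein that binds Pcna, went from 4.17 to 170 CPM in LT2, from 4.47 to 139 CPM in ST1 and from 4.74 to 195 CPM in ST2 (5.17, SE 0.08, edgeR adjusted p = 1.13e-17). Between 89.7% and 93.1% of its UMIs lay in marker-positive cells. Rfc2 rose by 0.75 (SE 0.07), from 124 to 258 CPM, from 170 to 252 CPM and from 179 to 280 CPM, and 24.9% to 40.9% of its UMIs lay in those cells. Pcna itself rose by 1.76 (SE 0.08), from 54.1 to 226 CPM, from 79.3 to 231 CPM and from 51.4 to 171 CPM. The DNA ligase gene Lig1 rose by 2.25 (SE 0.07), from 21.4 to 108 CPM, from 20.5 to 98.2 CPM and from 20.7 to 92.0 CPM. For each of these 4 genes the lowest marker-positive value lay above the highest marker-negative one, without a share over all genes to set beside it. The flap nuclease gene Fen1 rose by 1.91 and Dscc1, of the loader that acts in sister chromatid cohesion, by 3.03.

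The genes that supply nucleotides had the highest median log2 fold change of the 8 roles, 3.94. Rrm2 went from 2.44 to 90.4 CPM in LT2, from 1.38 to 58.6 CPM in ST1 and from 2.24 to 90.8 CPM in ST2 (5.32, SE 0.11, edgeR adjusted p = 4.02e-16). Tk1 went from 3.25 to 105 CPM, from 1.72 to 54.5 CPM and from 1.79 to 62.8 CPM (5.02, SE 0.11). Tyms went from 20.5 to 155 CPM, from 15.7 to 106 CPM and from 17.0 to 134 CPM (2.86, SE 0.07). Rrm1, the large subunit of ribonucleotide reductase, rose by 2.02, from 24.1 to 113 CPM, from 21.0 to 82.2 CPM and from 21.2 to 75.9 CPM. The subunits of that enzyme thus stood apart in marker-negative cells, where Rrm1 kept 21.0 to 24.1 CPM and Rrm2 1.38 to 2.44 CPM.

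Of the 9 checkpoint and repair genes, Rad51ap1 rose most (3.98, SE 0.14), from 3.25 to 52.7 CPM, from 2.16 to 30.2 CPM and from 1.88 to 36.1 CPM in LT2, ST1 and ST2. Clspn, which encodes the adaptor that passes the signal of stalled forks to Chek1, rose by 3.21 (SE 0.12), Exo1 by 2.76 and Chek1 by 2.28. Tipin, of the complex that protects the fork, rose by 1.81 (SE 0.05), from 43.4 to 160 CPM, from 37.8 to 128 CPM and from 41.7 to 145 CPM. The uracil glycosylase gene Ung rose by 2.39 and Blm by 1.52. Dtl, which directs Cdt1 to degradation, rose by 1.75 (SE 0.10), from 17.9 to 78.7 CPM, from 26.04 to 72.9 CPM and from 20.8 to 74.7 CPM. Usp1, a deubiquitinase of Pcna, rose by 1.20 (SE 0.06), the lowest of the group, from 46.0 to 115 CPM, from 48.8 to 101 CPM and from 38.6 to 97.6 CPM.

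Among the 9 genes of chromatin and histone supply, Uhrf1, which guides DNA methylation to new strands, rose most (3.09, SE 0.09), followed by the chromatin remodeler gene Hells (2.44, SE 0.07). Atad2 rose by 1.86, Nasp, a histone chaperone, by 1.72, Wdr76 by 1.68 and Slbp, which binds the end of histone messages, by 1.45. Slbp went from 79.1 to 242 CPM, from 77.9 to 191 CPM and from 78.9 to 220 CPM. Cdca7, a partner of Hells, rose by less, 1.13 (SE 0.05), from 91.0 to 200.3 CPM, from 69.4 to 150.5 CPM and from 76.4 to 170.1 CPM. The smallest values of this group were those of Ubr7 (0.79, SE 0.10) and Chaf1b (0.53, SE 0.07). Chaf1b went from 60.4 to 90.1 CPM, from 47.3 to 73.2 CPM and from 60.7 to 73.8 CPM, and 20.4% to 37.9% of its UMIs lay in marker-positive cells.

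Both E2F factors of the list rose, by different amounts. E2f1, an activator of entry into S phase, went from 6.50 to 33.7 CPM in LT2, from 5.55 to 36.2 CPM in ST1 and from 5.72 to 33.9 CPM in ST2 (2.58, SE 0.12). E2f8, a repressor that acts later, was the rarest of the 44 genes, with 78, 140 and 55 UMIs in the 3 libraries. It went from 0.203 CPM, under the limit of detection, to 23.3 CPM, from 0.884 to 15.2 CPM and from 0.358 to 21.6 CPM (5.0, SE 0.30, edgeR adjusted p = 4.36e-10). With so few marker-negative UMIs, E2f8 passed the filter on low counts through the marker-positive class. With no such filter all 44 members were again called. No class overlapped the other for either gene.

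**Figure D3:**
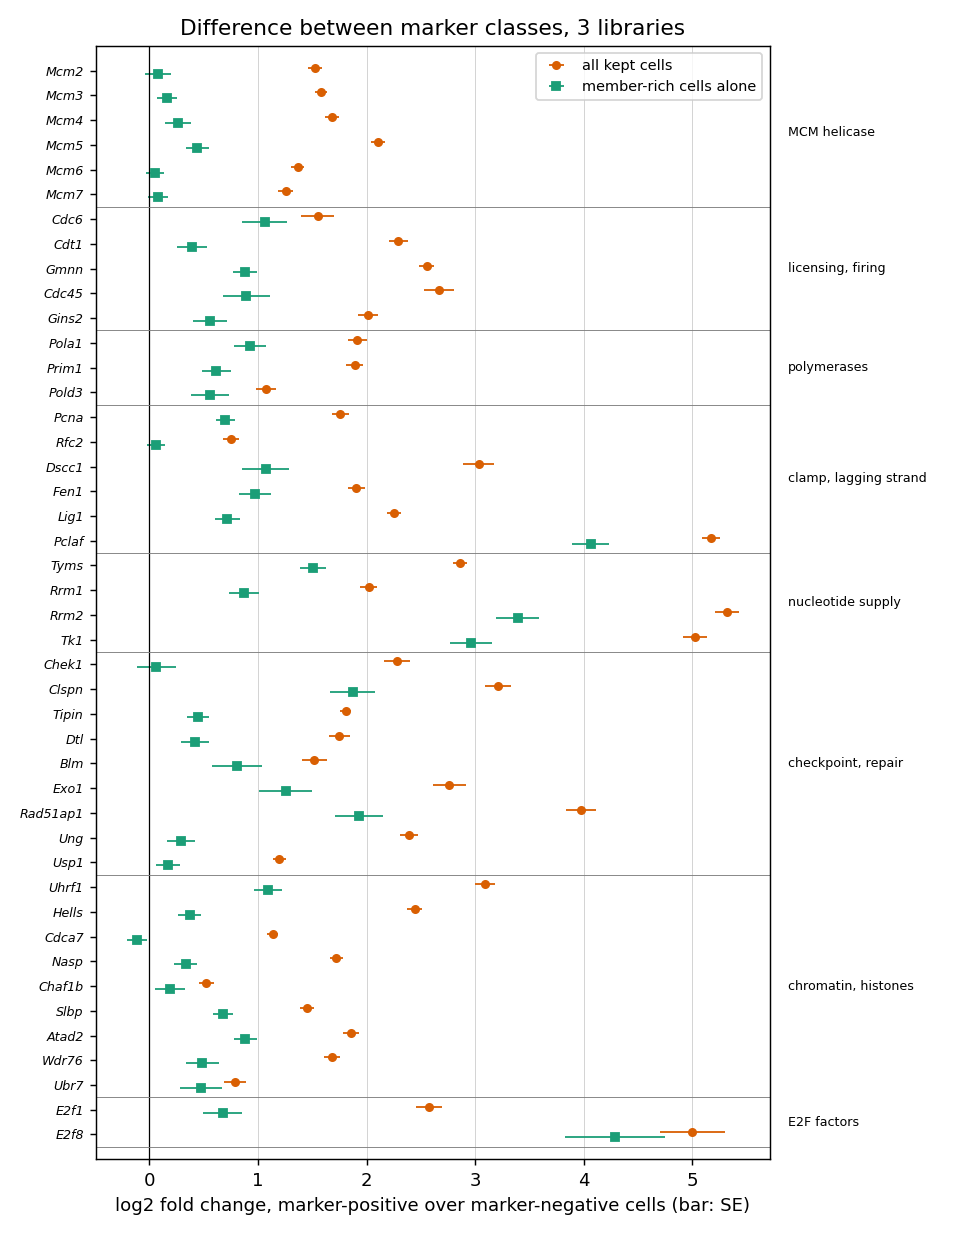
Log2 fold change, marker-positive over marker-negative cells, of each of the 44 genes by edgeR with its SE (bars), over all kept cells (circles) and over member-rich cells alone (squares), in 3 libraries, grouped by role. Over all kept cells the 44 values run from 0.53 (Chaf1b) to 5.32 (Rrm2); over member-rich cells alone the MCM genes lie from 0.05 to 0.44, and Rrm2, Tk1, Pclaf and E2f8 from 2.96 to 4.29.

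Of 65 other replication genes, 59 were higher in marker-positive cells and 2 lower, with a median of 1.31. Dut, which removes dUTP, went from 137 to 447 CPM, from 132 to 417 CPM and from 136 to 453 CPM (1.70, SE 0.05). The clamp loader gene Rfc4 rose by 1.81 and Rpa2, which coats single strands, by 1.48. The 2 lower genes were Pold4 (-0.40) and Rrm2b (-0.42), the latter known as the reductase subunit of cells outside S phase. Of 18 genes of entry into S phase, 14 were higher and 2 lower, Ccna2 (7.17), Mybl2 (4.76), Ccne2 (3.46) and Fbxo5 (1.89) among the higher. Of 16 genes that restrain the cycle, 6 were higher and 4 lower, with Cdkn2c (1.42), Rbl1 (1.15) and Lin9 (1.02) up and Txnip (-0.54) down. Of 51 genes of G2 and mitosis, 50 were higher, Birc5 (6.62) among them, and 1 lower. Some of them peak together with the markers that chose the classes. In marker-negative cells of LT2, ST1 and ST2, Ccna2 lay at 0.406, 0.0983 and 0.447 CPM and Mybl2 at 0.610, 0.590 and 0.447 CPM. Birc5 lay at 1.52, 0.835 and 0.984 CPM there. Ccna2, Mybl2 and Birc5 passed the filter on low counts through the marker-positive class, so their calls are not read as a result. Of 11 markers of HSCs, 9 were lower and none higher: Mllt3 by -0.76, Procr by -0.64, Ly6a by -0.61 and Hlf by -0.46.

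S phase RNA was not confined to marker-positive cells. A cell was called member-rich when at least 9 of its 2000 thinned UMIs came from the 44 genes, the smallest whole number that at most 10% of kept cells reached. Member-rich cells made up 9.45% (exact binomial interval 7.86% to 11.2%) of LT2, 9.34% (8.26% to 10.5%) of ST1 and 6.85% (5.70% to 8.16%) of ST2. Of these, 73.9% (85 of 115), 75.6% (186 of 246) and 65.8% (77 of 117) were marker-positive; with the markers thinned to 2000 UMIs as well, the shares were 36.5%, 30.5% and 35.9%. The others, 30, 60 and 40 cells, held no UMI of Mki67 or Top2a at a median depth of 15231, 12534 and 10213 UMIs, above that of all marker-negative cells. Of the marker-positive cells, in turn, 38.8%, 31.9% and 34.5% were member-rich.

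Within member-rich cells, which these same genes helped to choose, the early and the late genes parted. The 14 genes of the step from G1 to S phase summed to 1974, 1954 and 1874 CPM (plain totals) in marker-negative member-rich cells and to 2634, 2550 and 2379 CPM in marker-positive ones. The 11 genes of later S phase summed to 442, 362 and 382 CPM and to 1704, 1324 and 1507 CPM. The ratio of early to late UMIs was thus 4.46, 5.39 and 4.91 in marker-negative member-rich cells and 1.55, 1.93 and 1.58 in marker-positive ones, with no overlap between the classes. In member-poor cells the ratios were 6.48, 7.61 and 7.55 without markers and 4.20, 3.78 and 4.89 with them.

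**Figure D4:**
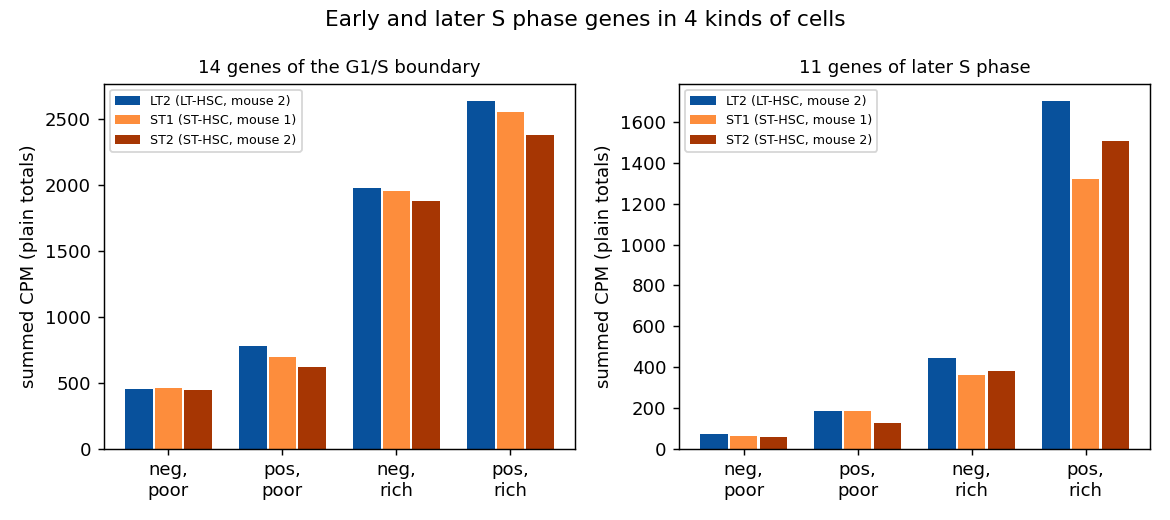
Summed CPM (plain totals) of the 14 genes of the G1/S boundary (left) and the 11 genes of later S phase (right) in marker-negative (neg) and marker-positive (pos) cells that are member-poor or member-rich, 1 bar per library. Both sums define or track the member-rich class; between the rich classes the early sum goes from between 1874 and 1974 to between 2379 and 2634, and the late sum from between 362 and 442 to between 1324 and 1704.

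Tested over all genes in member-rich cells alone, a comparison chosen after the data had been seen, 31 of the 44 members were higher in marker-positive cells and none lower. The background was 4.95% higher and 1.80% lower of 8371 genes. Both classes were picked on the sum of the members, and that sum was larger in marker-positive cells, with a mean of 15.5, 14.5 and 14.4 thinned UMIs against 11.3, 11.4 and 11.6. The choice of cells thus shaped the members' values and p-values in this comparison. The median log2 fold change was 0.65, against -0.02 over all genes. All 11 later genes were called (median 1.87) and 7 of the 14 early ones (median 0.41). DESeq2 called 16 members higher (1.61% of all genes), and the fit without the library block 18 (1.97% of all genes). Without ST1, which holds most of the cells, edgeR called 21 (3.52% of all genes), among them all 11 later genes.

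The MCM genes were nearly as high in marker-negative as in marker-positive member-rich cells. They are part of the sum that chose both classes, so this comparison cannot separate their closeness from that choice. On plain totals, Mcm3 lay at 296, 295 and 218 CPM in the marker-negative and 308, 322 and 287 CPM in the marker-positive ones of LT2, ST1 and ST2 (log2 fold change 0.16, SE 0.09, edgeR adjusted p = 0.355). Mcm6 lay at 379, 280 and 364 CPM against 397, 295 and 375 CPM (0.05, SE 0.08, adjusted p = 0.820). The values of the classes overlapped between libraries for both genes. Mcm5 alone of the 6 passed the test (0.44, SE 0.11, adjusted p = 0.00517), and it did not pass without ST1 (0.35, adjusted p = 0.158). Cdca7 had the only value below 0 (-0.11, SE 0.09, adjusted p = 0.577), at 296, 238 and 311 CPM against 284, 238 and 252 CPM. Also short of the test were Cdt1 (0.39), Ung (0.29), Usp1 (0.17), Chaf1b (0.19), Chek1 (0.07), Rfc2 (0.06) and Ubr7 (0.47). A p that misses the threshold does not show that these genes are equal in the classes.

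The later genes differed widely in the same cells. They too are part of the sum that chose both classes, so their calls are no independent support. On plain totals, Pclaf lay at 9.02, 17.5 and 36.7 CPM in marker-negative member-rich cells (4, 13 and 15 UMIs) and at 337, 314 and 384 CPM in marker-positive ones (4.06, SE 0.17). Rrm2 lay at 18.0, 10.8 and 17.1 CPM against 178, 123 and 182 CPM (3.39, SE 0.20). Tk1 lay at 31.6, 10.8 and 17.1 CPM against 202, 118 and 127 CPM (2.96, SE 0.19). None of the 3 overlapped between classes in any library. Rad51ap1 (1.93), Clspn (1.87), Tyms (1.51), Exo1 (1.25) and Dscc1 (1.07) were called as well. E2f8 had 3 UMIs in all marker-negative member-rich cells and 228 in the marker-positive ones, a ratio of CPM of 20.3 (95% counting interval 6.87 to 99.4).

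**Figure D5:**
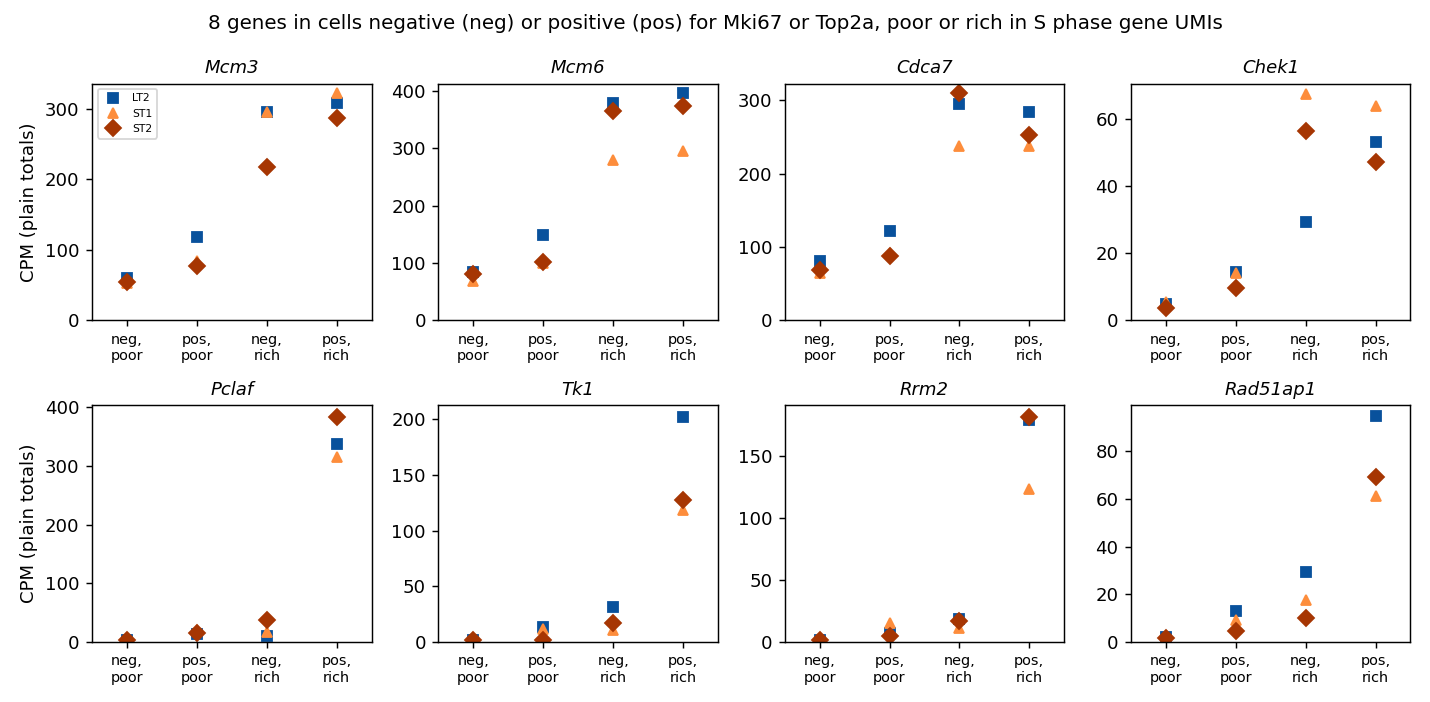
CPM (plain totals) of 8 of the 44 genes in marker-negative (neg) and marker-positive (pos) cells that are member-poor or member-rich, 1 symbol per library. The ranges of the member-rich classes overlap for Mcm3, Mcm6, Cdca7 and Chek1; Pclaf, Tk1, Rrm2 and Rad51ap1 lie far higher in marker-positive member-rich cells, such as Rrm2 at 123 to 182 CPM against 10.8 to 18.0 CPM.

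The last comparison set marker-negative member-rich cells (30, 60 and 40 cells) against marker-negative member-poor cells. The 44 genes chose these classes and get no test here; genes outside the list were read. Of 62 other replication genes tested, 51 were higher in member-rich cells and 1 lower, Pold4 (-0.85). Over all 11383 genes tested, 919 (8.07%) were higher and 630 (5.53%) lower. Dut lay at 122, 121 and 125 CPM in member-poor and 433, 426 and 421 CPM in member-rich cells (1.80, SE 0.08, edgeR adjusted p = 5.37e-66). Rfc4 rose by 1.75 and Rpa2 by 1.41. Of 36 G2 and mitosis genes tested, 14 were higher and 2 lower.

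Of 16 tested genes of entry into S phase, 8 were higher in these marker-negative member-rich cells and 1 lower. Ccne2, the cyclin that drives that entry, rose by 2.12 (SE 0.61, edgeR adjusted p = 0.0076), from 1.69, 1.54 and 2.05 CPM to 11.3, 5.39 and 7.38 CPM. Its member-rich values rest on only a few UMIs in each library, at or near the limit of detection. That call was lost without LT2 (1.81). Of 16 restraint genes, 3 were higher and 6 lower. The retinoblastoma relative Rbl1 rose by 1.82 (SE 0.20), and Txnip fell by 0.78 (SE 0.07), from 744, 507 and 523 CPM to 354, 352 and 300.3 CPM. Of the 11 HSC markers, 6 were lower and none higher: Mllt3 (-1.13, SE 0.13), Procr (-0.84) and Hlf (-0.65) among them, and Ly6a (-0.42), which did not pass without ST2 (-0.25). Of 7 tested neutrophil markers, 6 were lower in member-rich cells, with a median log2 fold change of -5.95. Markers nearly absent from so few cells pass the filter on low counts through the member-poor class. These calls are therefore not read as a result. Without the cells that carry other-type markers 925 genes were higher and 625 lower.

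A term for the difference in marker class effect between the gates was added to the class comparison after the data had been seen; it rests on 1 LT-HSC and 2 ST-HSC libraries. It thus sets the library LT2 against ST1 and ST2, and the spread between LT-HSC libraries is assumed to equal that of ST-HSC. Under that assumption 3 of the 44 members, Cdc6, Atad2 and Rfc2, were called with a larger difference in LT2, where 0.230% of 12188 genes had a larger and 0.656% a smaller one. Their values are given in the closing section.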

How the data were processed

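UMI counts per gene and barcode, not normalized, were deposited by the authors as 1 sparse matrix per library. The submitters' processing notes name Cell Ranger 3.1.0 and mm10; the software version in the matrices is 3.0.2, per the file headers. Libraries were made with 10x Chromium 3′ v3 reagents, per the labels' protocols. No doublet caller was run; an alternative left out cells with over 2.5 times their library's median UMIs (1, 7, 20 and 11 cells in LT1, LT2, ST1 and ST2).

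Cells are not replicates: counts of kept cells were added up per library, or per class within a library, and compared with edgeR 4.0.16 (glmQLFit and glmQLFTest, TMM, filterByExpr, Benjamini-Hochberg adjustment over all genes tested, threshold 0.05). The SE was taken from the log2 fold change and its F statistic. CPM used TMM-scaled totals unless plain totals are named. Alternatives were DESeq2 1.42.0, RLE size factors, no filter on low counts, the block by mouse or library, other cell filters and marker rules, and leaving out each library. Same-numbered libraries come from the same animal; their deviations from the gate means correlated at 0.0361 over 12656 genes.

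The members, gene lists and tests were chosen with earlier results of these data known. Values in every library are given for up to 3 members per role with the highest mean CPM, members past the gate test or its block, and the 5 largest and 5 smallest class differences among members with a mean of at least 5 CPM; of each other list, up to 4 genes with the smallest p in the class test and at least 5 CPM were eligible. Further genes were picked after seeing their values. In counts simulated from these libraries, 100 genes were changed by 1 and 100 by 2 on the log2 scale, all with a mean of at least 5 CPM. The gate test recovered 81 and 100 (12472 genes tested, 9 false calls) and the class test 99 and 100 (12048 genes, 12 false calls). The test within member-rich cells recovered 67 and 99 (8147 genes, 7 false calls). The test of member-rich against member-poor cells recovered 73 and 99 (11269 genes, 8 false calls). The members' log2 fold changes between gates ran from -0.45 to 0.87, smaller than any change simulated. Recovery of such differences was not tested.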

Additional observations from a re-analysis of the deposited data

Results flagged for a closer look

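For 3 of the 44 genes the difference between marker classes was larger in LT2 than in ST-HSC of both mice by the class by gate term of edgeR. LT-HSC has 1 library in that fit, so its SE and p rest on the spread of the ST-HSC libraries, which LT-HSC is assumed to share, and do not measure the spread between LT-HSC libraries. For Cdc6, the licensing factor, the term was 1.08 (SE 0.23, adjusted p = 0.0046): it went from 7.42 CPM in marker-negative to 38.3 CPM in marker-positive cells of LT2, from 13.6 to 30.5 CPM in ST1 and from 13.1 to 38.2 CPM in ST2. The libraries parted mostly in marker-negative cells. For Atad2, a chromatin ATPase, the term was 0.51 (SE 0.10, adjusted p = 0.00166), with 39.7 to 184 CPM, 42.3 to 134 CPM and 36.4 to 124 CPM; here the libraries parted in marker-positive cells. For Rfc2 it was 0.45 (SE 0.12, adjusted p = 0.0387), with 124 to 258 CPM, 170 to 252 CPM and 179 to 280 CPM. When a marker-positive cell had to hold UMIs of both Mki67 and Top2a, the call remained for Cdc6 (1.38, adjusted p = 0.0065) and not for Atad2 (0.52, adjusted p = 0.093) or Rfc2 (0.59, adjusted p = 0.0509). Gate and library cannot be told apart here. Markers of other cell types differed between these libraries as given above; without cells that carry them the terms were 1.12, 0.52 and 0.46 in the same order.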

How the results depend on the processing

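Between gates, 455 genes were higher in LT-HSC and 396 in ST-HSC; DESeq2 called 29 and 24, all barcodes of LT1 with the replicate block 849 and 628, and leaving out 1 library gave 1 to 602 and 0 to 365, the lowest without LT2. Members higher in LT-HSC numbered 1, against 0 with DESeq2, 4 with the replicate block, 4 with all barcodes of LT1, 5 with both, 3 without other-type cells, 2 without high-UMI cells and 0 to 3 with 1 library left out. The members' median log2 fold change between gates, 0.17 with 35 of 44 above 0, was 0.04 with 24 above 0 by DESeq2, 0.03 with 24 without ST2 and -0.84 with 12 without LT2. Without LT2, which leaves the 22 cells of LT1, the log2 fold changes of Cdc45, Rad51ap1 and Tk1 were -0.088, -9.99 and -10.68, of which the last 2 are fits to 0 UMIs; their highest values, without ST1, were 0.77, 0.94 and 1.07.

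Between marker classes, 2106 genes were higher and 1635 lower; DESeq2 called 1280 and 501, the fit with no replicate block 796 and 110, classes from thinned counts left 1088 lower, and leaving out 1 library 1077 to 1239 lower. In member-rich marker-negative cells 919 genes were higher and 630 lower, against 479 and 138 with DESeq2, 351 and 73 with no replicate block, 225 and 274 for the highest 5% of cells, and 579 to 721 and 337 to 424 with 1 library left out; other replication genes called higher went from 51 to 33 for the highest 5%. Within member-rich cells, members called higher went from 31 to 16 with DESeq2 and 18 with no replicate block. The shares of all genes called higher were 4.95%, 1.61% and 1.97% in the same order. There Mcm2 (-0.0012 to 0.18) and Mcm7 (-0.030 to 0.14) reached below 0 without ST1, and Chek1 (-0.12 to 0.24) without LT2. The replicate block pairs libraries of the same animal, or classes of the same library.

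The members' share of thinned UMIs, as a mean of libraries, went in LT-HSC from 0.184% to 0.134% with thinning to 4000 UMIs and 0.134% with the stricter cell filter, and in ST-HSC from 0.155% to 0.190% with no thinning. Marker-positive cells in ST-HSC went from 17.6% to 6.38% with thinned counts. Thinning to 4000 UMIs and the stricter filter each left 12 of the 22 cells of LT1. The value with no thinning is a share of the summed UMIs of a library, not a mean over its cells, so the measures differ. The cause of these shifts was not tested beyond this. Depth limits LT1 above all.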
